A study of Ovis aries with 20 samples.

Results

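IGF2BP1, IGF2BP2, IGF2BP3, LIN28B, HMGA2 and HMGA1, a set of 6 genes of the fetal growth program, were followed in the trachea of sheep with cystic fibrosis (CF) and of normal (WT) sheep. They were picked by symbol from the 24478 genes of the 2 count tables, and all 6 were among the 20097 genes that passed the filter on low counts. The choice was made with their levels known, namely the loss of RNA with age and the remnant of IGF2BP1 in CF at birth. These patterns are therefore given as values without a test. For the 6 genes, tests are reserved for what the choice did not use, the CF to WT difference before birth.

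RNA of tracheal tissue had been sequenced at days 65, 80, 100 and 120 and at birth, on day 147. Each age held 2 CF and 2 WT samples, so that 20 samples fell into 10 groups. In CF the epithelial anion channel CFTR is defective. Which CFTR allele the CF sheep carried was not given in the sources used here. The RNA level of CFTR was not called different over the mean of days 65 to 120, with a CF over WT log2 difference of -0.71 (adjusted p = 0.293 in edgeR), and so gives no check of the genotype labels. By its title the series is about deficits of the CF airway that arise early in development. Both CF libraries of birth bear 1 sample identifier, as do both WT libraries of day 100, and each such pair may stand for 1 animal. CF day 100 replicate 2 and WT day 65 replicate 2 have a further identifier in common, although their titles put them in different genotypes and ages. No label ties the replicates to separate animals, so that p-values cover only the spread among samples, part of which may be technical.

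LIN28B, HMGA2 and the IGF2BP genes belong to the heterochronic circuit, which sets the timing of development and is known from nematodes, mice and humans. LIN28B protein binds precursors of the let-7 microRNAs and blocks their maturation. As tissues mature, let-7 accumulates and represses LIN28B itself together with HMGA2 and IGF2BP mRNAs. The IGF2BP proteins bind and stabilise mRNAs, IGF2 and MYC among them, and the HMGA proteins bend AT-rich DNA in chromatin. Most of these genes are silent or weak in adult tissues and return in tumours, hence the name oncofetal.

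Total counts ran from 42372433 to 87651829 per library, and levels are given as CPM, counts scaled to the library size as normalised by TMM. The tissue was labelled epithelial, and the summed level of 12 epithelial markers lay between 1468 and 9392 CPM. Fibroblast markers summed to between 4551 and 52039 CPM and cartilage markers to between 222 and 4169 CPM, so that wall tissue was present in every library. In such bulk samples, fewer cells of a type and less RNA per cell cannot be told apart. Libraries also differed in the slope of log2 CPM on gene length, which was at or below -0.145 in 5 libraries and at or above -0.0993 in the other 15. The 5 were WT day 80 replicate 1, WT day 100 replicate 1, WT day 120 replicate 2, WT birth replicate 2 and CF day 120 replicate 1. Genes of other tissues, such as thymus, thyroid, liver or muscle, were high in 4 libraries, namely WT day 65 replicate 2, WT day 80 replicate 2, CF day 65 replicate 2 and CF day 80 replicate 1.

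IGF2BP1 lost nearly all of its RNA before birth in both genotypes. The gene encodes the RNA-binding protein that shields IGF2, MYC and ACTB mRNAs, and the count tables place it on the minus strand of chromosome 11, from 37009695 to 37052538. The genome build was not given in the sources used here. In CF libraries its level was 28.7 and 29.96 CPM on day 65, 7.49 and 6.35 CPM on day 80, 4.84 and 5.91 CPM on day 100, 0.448 and 0.581 CPM on day 120, and 0.914 and 0.5996 CPM at birth. In WT libraries it was 37.0 and 15.1 CPM on day 65, 10.5 and 5.18 CPM on day 80, 0.924 and 2.71 CPM on day 100, 2.08 and 1.66 CPM on day 120, and 0 in both libraries at birth. Until day 120 in CF and day 100 in WT, both libraries of an age lay below both libraries of the age before it.

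The group means of IGF2BP1 took their steepest steps at different ages in the 2 genotypes. With 2 libraries a group, the test of the CF to WT difference among days 65 to 120 did not pass in edgeR (adjusted p = 0.492) and passed in DESeq2 (adjusted p = 0.0302). Relative to day 65, the CF mean stood at 23.6% on day 80, 18.3% on day 100, 1.75% on day 120 and 2.58% at birth. The WT mean stood at 30.1% on day 80, 6.98% on day 100 and 7.17% on day 120, and no count was left at birth. The steepest step in CF lay between days 100 and 120, a log2 change of -3.39, where the WT change was 0.04. In WT the steepest step was the last one, a log2 change of -5.94 or lower between day 120 and birth against a floor of 3 counts, whereas the CF change over that interval was 0.56. A gene at 0 is set against that floor, taken over the 2 libraries, which covers counting error only. Low counts were mostly even, with 70.7% to 85.3% of values from 1 to 20 even per library. If both reads of a pair were counted, the matching floor is 6 counts. IGF2BP1 at birth was 38.8-fold lower than at day 65 in CF. In WT it was at least 859-fold lower with the floor of 3 counts and at least 430-fold lower with the floor of 6, where the last step is a log2 change of -4.94 or lower.

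**Figure D1:**
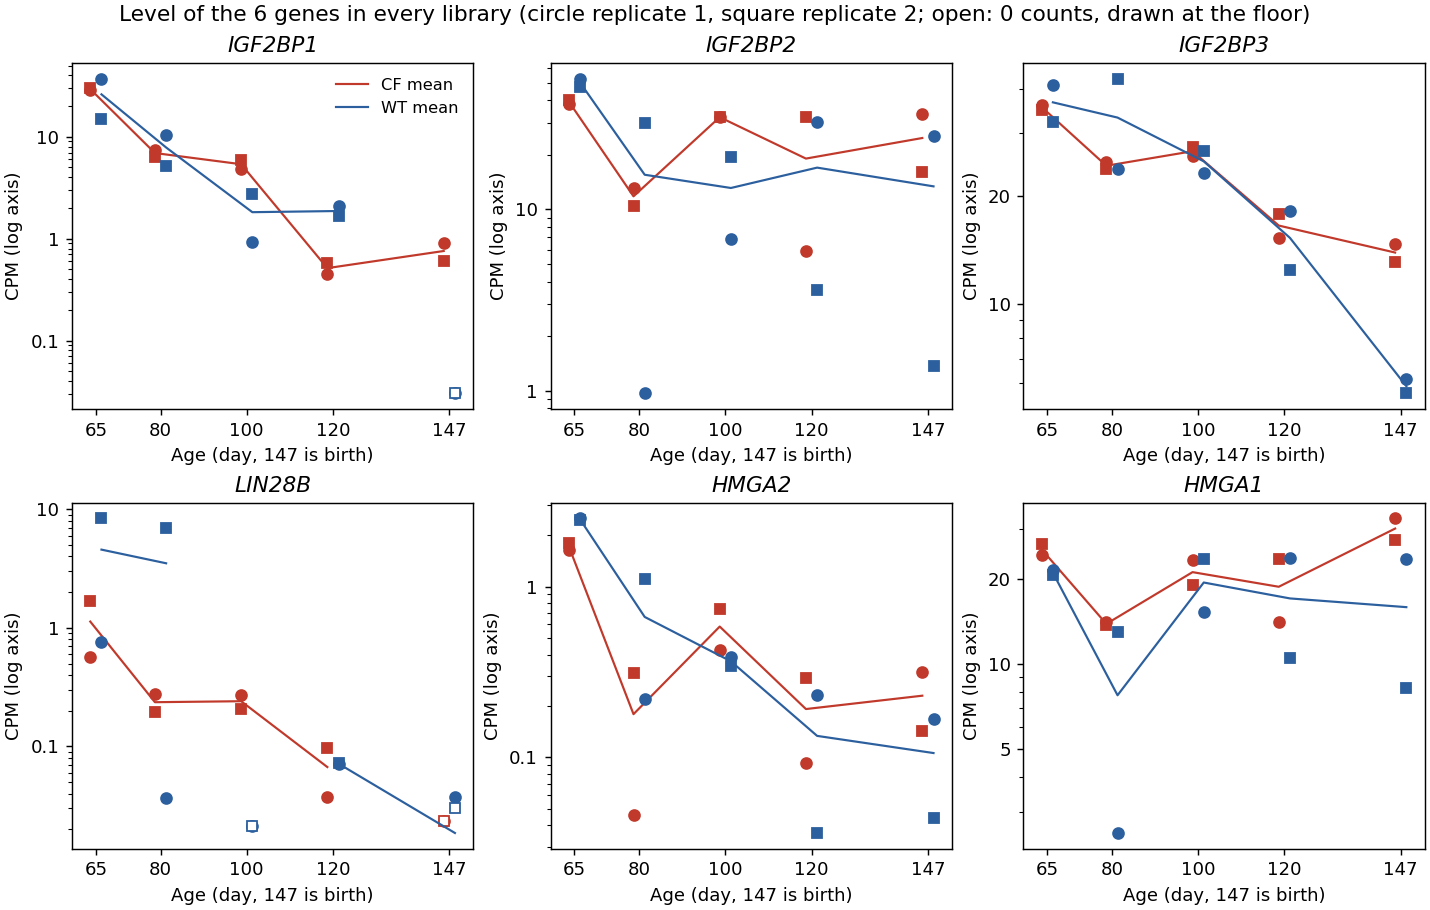
Level of each of the 6 genes in CPM (log axis) against age in days, with CF in red to the left of WT in blue. Circles are replicate 1, squares replicate 2, lines join the group means and break where a group has 0 counts, and open symbols mark 0 counts, drawn at the floor of 3 counts per group. IGF2BP1, LIN28B and HMGA2 go down by more than an order of magnitude in at least 1 genotype, IGF2BP3 goes down less, and the libraries of IGF2BP2 and HMGA1 scatter within the later groups.

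IGF2BP3, a paralogue with the same fetal pattern in other mammals, went down more slowly and over a smaller range. It lies on the minus strand of chromosome 4 from 31897319 to 32049061. CF libraries held 36.1 and 35.0 CPM on day 65, 24.9 and 23.8 CPM on day 80, 25.9 and 27.5 CPM on day 100, 15.3 and 17.9 CPM on day 120, and 14.7 and 13.1 CPM at birth. WT libraries held 40.9 and 32.4 CPM on day 65, 23.8 and 42.6 CPM on day 80, 23.3 and 26.8 CPM on day 100, 18.2 and 12.4 CPM on day 120, and 6.15 and 5.61 CPM at birth. The CF mean at birth was 39.1% of that on day 65, and the WT mean 16.05%. Replicates of a group differed by at most 1.79-fold, on day 80 in WT. The genotypes overlapped at every age before birth, and at birth both CF libraries lay above both WT libraries.

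IGF2BP2 showed no orderly decline after day 80. This paralogue stays on in adult tissues of mouse and human, and lies on the plus strand of chromosome 1 from 199458969 to 199620851. Its level in CF libraries was 38.4 and 40.3 CPM on day 65, 13.2 and 10.4 CPM on day 80, 32.3 and 32.3 CPM on day 100, 5.89 and 32.3 CPM on day 120, and 33.5 and 16.1 CPM at birth. Its level in WT libraries was 52.6 and 47.7 CPM on day 65, 0.965 and 30.1 CPM on day 80, 6.85 and 19.4 CPM on day 100, 30.4 and 3.58 CPM on day 120, and 25.4 and 1.37 CPM at birth. Replicates differed by up to 31.2-fold, on day 80 in WT. The 5 libraries with the lowest length slope were also the 5 with the least IGF2BP2, at 0.965 to 6.85 CPM, against 10.4 to 52.6 CPM in the other 15.

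Over the 20 libraries the log2 level of IGF2BP2 went with the length slope at r = 0.91, as high as in 3.17% of the genes tested. The points share library, depth and gene length, and the correlation is a description. For the other members r was 0.76 for HMGA2, 0.63 for HMGA1, 0.62 for LIN28B, 0.46 for IGF2BP3 and 0.42 for IGF2BP1. The part of the slope in the spread of IGF2BP2 was not tested. The count tables give IGF2BP2 a summed exon length of 2628 bases, IGF2BP1 5594 bases and IGF2BP3 8422 bases.

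**Figure D2:**
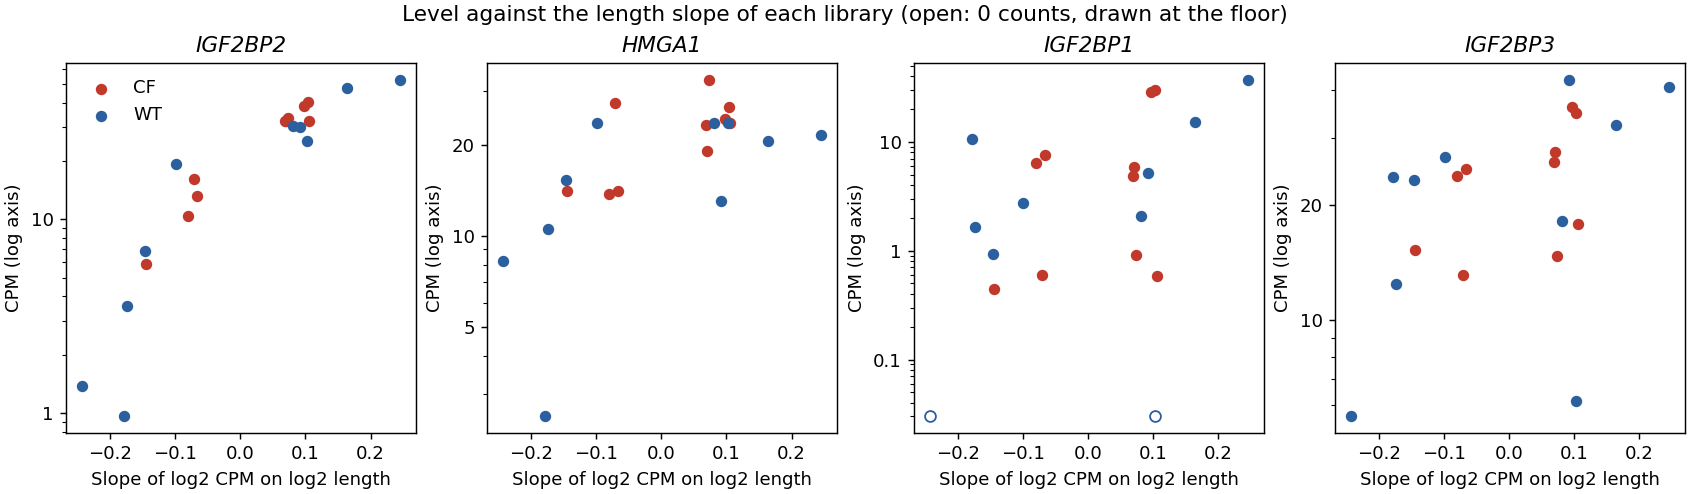
Level in CPM (log axis) of IGF2BP2, HMGA1, IGF2BP1 and IGF2BP3 against the slope of log2 CPM on log2 gene length in the same library, with 1 point per library, CF in red and WT in blue. IGF2BP2 climbs with the slope over the 20 libraries (r = 0.91), whereas IGF2BP1 (r = 0.42) and IGF2BP3 (r = 0.46) have low and high libraries at both ends.

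LIN28B, the block on let-7 maturation, was the weakest member per length and was down to 2 counts or fewer per group at birth. It lies on the minus strand of chromosome 8 from 32018586 to 32153513. CF libraries had 0.568 and 1.69 CPM on day 65, 0.277 and 0.195 CPM on day 80, 0.274 and 0.207 CPM on day 100, 0.0373 and 0.0968 CPM on day 120, and 0 in both at birth. WT libraries had 0.761 and 8.38 CPM on day 65, 0.0364 and 6.97 CPM on day 80, 0 in both on day 100, 0.0711 and 0.0721 CPM on day 120, and 0.0373 and 0 CPM at birth. The 2 high WT libraries, replicate 2 of day 65 and of day 80, exceeded their partners 11.01-fold and 191-fold, and every other library lay at or below 1.69 CPM.

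Those 2 WT libraries were also the ones with thymus genes, which mark the organ next to the trachea. The summed level of 9 thymus markers was 345 CPM in WT day 65 replicate 2 and 263 CPM in WT day 80 replicate 2. It was 16.4 CPM in CF day 100 replicate 2 and between 2.18 and 7.67 CPM in the other 17 libraries. All 9 had counts in those 3 libraries, as they did in CF day 65 replicate 2, CF day 100 replicate 1 and CF day 120 replicate 2. PRSS16, a protease of the thymic cortex, stood at 125 CPM in WT day 65 replicate 2 and at 0 in its partner, and PRSS16, RAG1 and RAG2 were at 0 in all 4 libraries of birth. LIN28B at 0.568 to 1.69 CPM was present on day 65 in the 3 libraries without a high thymus sum. Thymus was not the only other tissue in the 2 high WT libraries. Thyroid markers summed to 110133 CPM in WT day 80 replicate 2, against 149 CPM in its partner. Skeletal muscle markers summed to 813 CPM in WT day 65 replicate 2, against 4.85 CPM in its partner. The part of thymus, thyroid or muscle tissue in the 2 high LIN28B values was not tested.

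At birth 0 and 2 counts of LIN28B were left in the CF and WT pairs. In CF this was at least 47.8-fold below day 65 with the floor of 3 counts, and at least 23.9-fold with that of 6. The CF level on day 65 was 0.568 CPM in replicate 1 and 1.69 CPM in replicate 2, so the fold would be smaller against replicate 1 alone. Replicate 2 was high in liver genes, with summed liver markers at 18867 CPM against 108 CPM in replicate 1. The part of liver tissue in its LIN28B value was not tested. In WT the group mean at birth was 245-fold below that of day 65. From the pooled counts of each pair, scaled to library size, the ratio was 184-fold. Its 95% interval of 50.5 to 1520 covers counting error only. If counts came in pairs, the interval is 32.6 to 7282. Set against WT day 65 replicate 1 alone, the library without thymus genes, it was 37.6-fold, with an interval of 9.97 to 318, or 6.25 to 1535 if counts came in pairs.

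**Figure D3:**
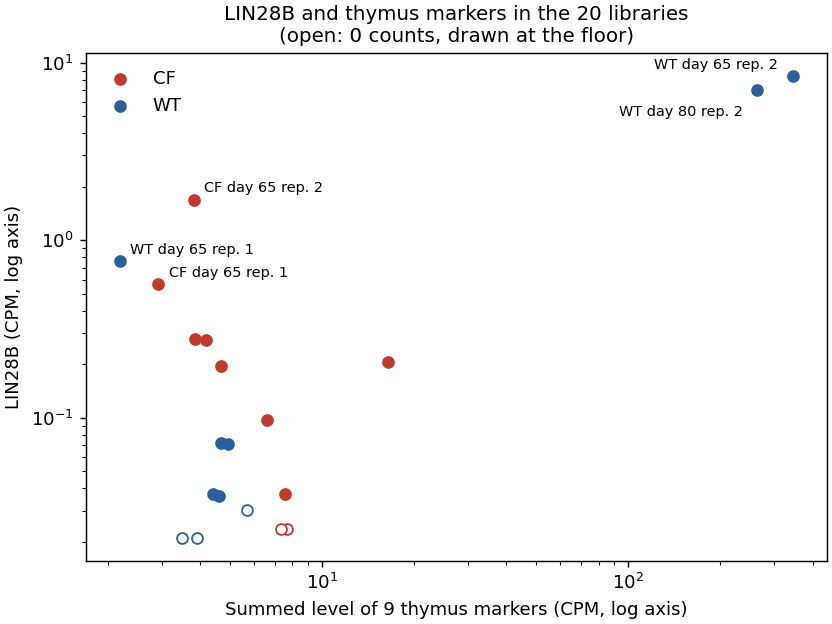
LIN28B in CPM against the summed CPM of 9 thymus markers, both on log axes, with 1 point per library, CF in red and WT in blue. WT day 65 replicate 2 and WT day 80 replicate 2 stand apart on both axes, at 345 and 263 CPM of thymus markers and 8.38 and 6.97 CPM of LIN28B, and open symbols are libraries with 0 counts.

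HMGA2, the AT-hook chromatin protein of growing tissues, had its highest level on day 65 in both genotypes. It lies on the minus strand of chromosome 3 from 153525064 to 153669145, with 447 bases of exon in the count tables. Its counts were low, at 868 in total over the 20 libraries. CF libraries had 1.63 and 1.81 CPM on day 65, 0.0462 and 0.312 CPM on day 80, 0.426 and 0.741 CPM on day 100, 0.0932 and 0.290 CPM on day 120, and 0.316 and 0.143 CPM at birth. WT libraries had 2.51 and 2.44 CPM on day 65, 0.219 and 1.11 CPM on day 80, 0.388 and 0.342 CPM on day 100, 0.231 and 0.0360 CPM on day 120, and 0.168 and 0.0442 CPM at birth. The mean at birth was 13.4% of that on day 65 in CF and 4.28% in WT, from 18 and 10 counts in the CF libraries and 9 and 2 counts in the WT libraries. Within the groups after day 65 the replicates differed by 1.13 to 6.74-fold, and CF and WT overlapped at birth.

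HMGA1, its paralogue and another AT-hook protein, was higher at birth than on day 65 in both CF libraries. It lies on the plus strand of chromosome 20 from 8391518 to 8398155. CF libraries held 24.3 and 26.6 CPM on day 65, 14.1 and 13.7 CPM on day 80, 23.3 and 19.0 CPM on day 100, 14.1 and 23.5 CPM on day 120, and 32.8 and 27.6 CPM at birth. WT libraries held 21.5 and 20.6 CPM on day 65, 2.53 and 13.005 CPM on day 80, 15.3 and 23.6 CPM on day 100, 23.7 and 10.5 CPM on day 120, and 23.6 and 8.24 CPM at birth. At birth the CF mean was 119% and the WT mean 75.6% of that on day 65. HMGA1 stood at 2.53 to 15.3 CPM in the 5 libraries of lowest length slope and at 13.005 to 32.8 CPM in the other 15. Without WT birth replicate 2, 1 of the 5, the WT log2 ratio of birth to day 65 was 0.19 for HMGA1 and -0.95 for IGF2BP2, against -0.40 and -1.90 with both.

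Set side by side, the members left the tissue to very different degrees. In both genotypes, 5 of the 6 had both libraries of birth below both libraries of day 65, HMGA1 being the exception. That pattern held for 31.5% of all tested genes in CF, 29.4% in WT and 19.3% in both, and the members were chosen for it. Ranked by the mean log2 ratio of birth to day 65 over the genotypes, IGF2BP1 was number 2 of 20097 genes in decline. LIN28B was number 18 and HMGA2 number 147. IGF2BP3 was number 1014, IGF2BP2 number 1101 and HMGA1 number 8896.

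**Figure D4:**
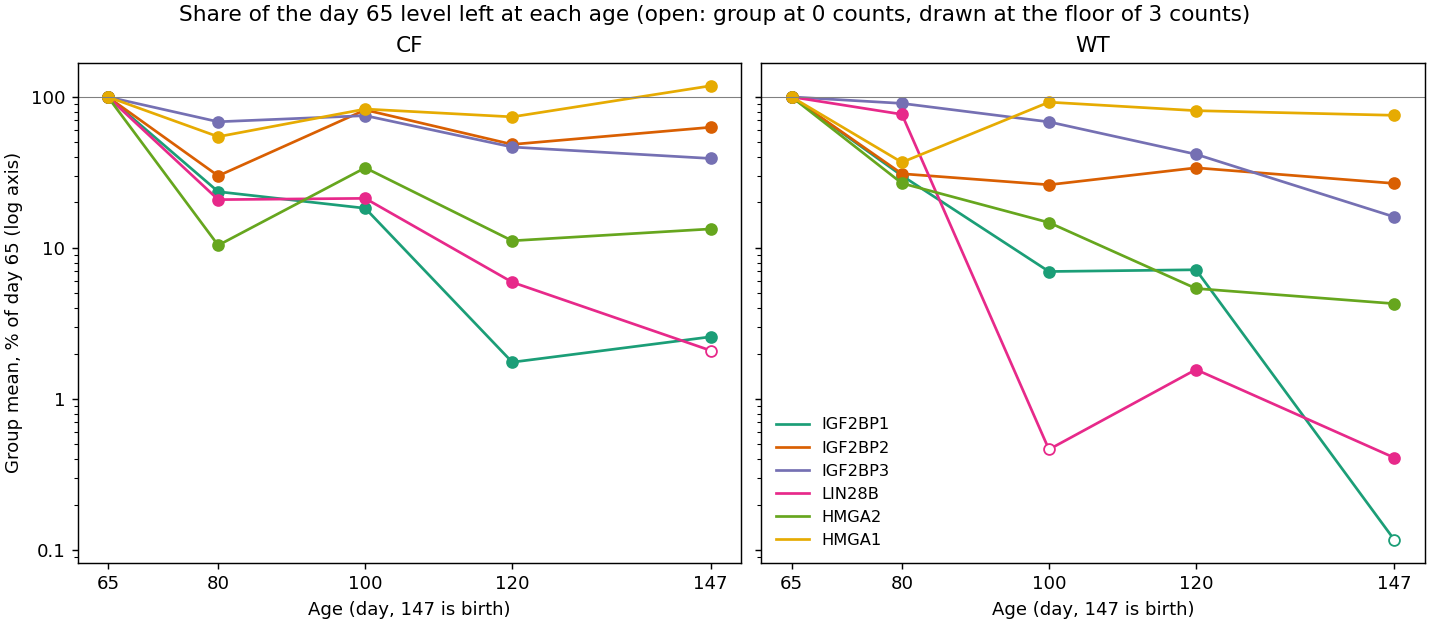
Group mean at each age as a percentage of the day 65 mean (log axis), with CF on the left, WT on the right and 1 line per gene. Open symbols are groups with 0 counts, drawn at the floor of 3 counts. IGF2BP1 is at 1.75% on day 120 in CF against 7.17% in WT, and at 2.58% at birth in CF against 0 counts in WT.

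Per kilobase of exon, HMGA1 was the most abundant member on day 65 and at birth. Its level on day 65 was 29.6 and 32.5 CPM per kilobase in CF and 26.2 and 25.1 in WT. IGF2BP2 had 14.6 and 15.3 CPM per kilobase in CF and 20.01 and 18.1 in WT at that age, and IGF2BP1 5.13 and 5.36 in CF and 6.62 and 2.70 in WT. LIN28B was lowest, at 0.0372 and 0.111 CPM per kilobase in CF and 0.0498 and 0.549 in WT. Within the IGF2BP family, IGF2BP1 made up 21.4% and 21.6% of the summed level per kilobase on day 65 in CF, and 21.0% and 10.9% in WT. At birth its share was 1.12% and 1.38% in CF and 0% in both WT libraries. IGF2BP2 then held 87.0% and 78.6% of the family in CF, and 93.0% and 43.9% in WT, where replicate 2 is a library of low length slope.

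Between CF and WT before birth, edgeR called none of the 6 genes, over the mean of days 65 to 120, at a single age or in the test among ages. DESeq2 called LIN28B on day 100 and IGF2BP1 in the test among ages. Over the mean of days 65 to 120, the log2 fold change of CF over WT was -0.08 ± 0.27 for IGF2BP1, 0.18 ± 0.69 for IGF2BP2 and -0.07 ± 0.14 for IGF2BP3 (SE). It was -0.30 ± 0.52 for HMGA2 and 0.34 ± 0.32 for HMGA1. The fitted fold change of LIN28B is left out here, since WT was at 0 on day 100 and the fit then depends on the prior count. Adjusted p ran from 0.877 to 0.995 in edgeR's quasi-likelihood test with Benjamini-Hochberg adjustment over 20097 genes. Over that mean none of the 6 had an unadjusted p under 0.05 and DESeq2 called none, while 90 genes passed in edgeR, 0.448% of those tested. The 95% intervals were -0.67 to 0.51 for IGF2BP1, -0.37 to 0.23 for IGF2BP3 and -1.31 to 1.67 for IGF2BP2, so that changes of IGF2BP2 larger than 2-fold are within the interval.

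In edgeR, IGF2BP1 had the lowest p among the members at single ages, with opposite signs on neighbouring ages. On day 100 it averaged 5.38 ± 0.76 CPM in CF and 1.82 ± 1.27 CPM in WT (SD, n = 2 each). The difference was 1.56 ± 0.56 on the log2 scale (SE), with an adjusted p of 0.249 in edgeR's quasi-likelihood test. Without WT day 100 replicate 1 it was 0.89, and without replicate 2 it was 2.54. On day 120 it averaged 0.514 ± 0.094 CPM in CF and 1.87 ± 0.30 CPM in WT (SD, n = 2 each). There the difference was -1.86 ± 0.57 on the log2 scale (SE), with an adjusted p of 1 in edgeR. At both ages the CF and WT libraries were apart, as were those of 70.6% of all tested genes on day 100 and 16.5% on day 120. An F test that the CF to WT difference is the same on days 65, 80, 100 and 120 gave IGF2BP1 an unadjusted p of 0.00924 and an adjusted p of 0.492 with edgeR. DESeq2 gave it an adjusted p of 0.0302.

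No other member had an edgeR p at a single age as low as those of IGF2BP1 on days 100 and 120. The CF to WT ratio of LIN28B on day 100 was larger than that of IGF2BP1. LIN28B on day 100 had 32 counts in the CF pair and 0 in the WT pair, at least 11.4-fold more in CF with the floor of 3 counts and 5.69-fold with that of 6, with an adjusted p of 0.316 in edgeR and 0.0474 in DESeq2. On day 80 LIN28B had an unadjusted p of 0.0489 and an adjusted p of 0.518 in edgeR. The WT group of that day holds a library of thymus and thyroid genes. On day 65 both CF libraries lay below both WT libraries for IGF2BP2 and HMGA2 and above them for HMGA1, when 47.5% of all genes had CF and WT libraries apart. On day 80 HMGA1 was the member whose libraries were apart, higher in CF, as were those of 22.3% of all genes in either direction. On day 65 all 6 had an adjusted p of 1 in edgeR, when 2 genes, 0.00995% of those tested, passed. On day 100 294 genes passed, 1.46% of those tested. No gene passed in edgeR on day 80, on day 120 or in the F test, with 1924, 279 and 1388 genes at an unadjusted p under 0.05 and with 693, 17 and 568 genes called by DESeq2.

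The make-up of the tissue also differed between the genotypes on day 100. Fibroblast markers summed to 35923 and 37825 CPM in the CF pair and to 4551 and 6533 CPM in the WT pair. Epithelial markers summed to 4535 and 4840 CPM in CF and to 8505 and 9392 CPM in WT. On day 120, where IGF2BP1 was lower in CF, fibroblast sums were 36426 and 39875 CPM in CF and 31026 and 31052 CPM in WT. The part of tissue make-up in the IGF2BP1 values was not tested.

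At birth a trace of IGF2BP1 was left in CF and none was seen in WT. The 2 CF libraries held 52 and 42 counts, against 0 and 0 counts in the WT libraries. With the WT pair at the floor of 3 counts, the CF mean was at least 25.0-fold higher. With the floor of 6 counts it was at least 12.5-fold higher. The WT libraries had length slopes of 0.102 and -0.243, and the CF libraries 0.0731 and -0.0708. The part of the length slope in this difference was not tested. Since both CF libraries bear 1 identifier, the trace may be that of 1 animal.

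IGF2BP3 also stood higher in CF at birth, by 1.24 on the log2 scale or 2.37-fold. HMGA1 was 1.90-fold higher with no overlap of the libraries, HMGA2 2.17-fold and IGF2BP2 1.85-fold higher with overlap. The WT means of these 3 join unlike libraries, since WT birth replicate 2 is one of low length slope. It held 1.37 CPM of IGF2BP2, 8.24 of HMGA1 and 0.0442 of HMGA2, against 25.4, 23.6 and 0.168 CPM in replicate 1. The CF libraries held 33.5 and 16.1 CPM of IGF2BP2 and 32.8 and 27.6 CPM of HMGA1. The part of the length slope in these ratios was not tested. CF and WT libraries were apart for 3 of the 6 members, IGF2BP1, IGF2BP3 and HMGA1, and for 31.3% of all tested genes. Only 19 genes, 0.0945% of those tested, passed between CF and WT at birth in edgeR, and the members are given without a test there. Markers of cycling cells went the other way, with sums of 253 and 261 CPM in CF and 321 and 361 CPM in WT. Epithelial markers overlapped, at 6779 and 6953 CPM in CF and 3113 and 8458 CPM in WT. Fibroblast markers were lower in CF, at 11016 and 15244 CPM against 17110 and 27182 CPM in WT. The part of these cell types in the IGF2BP1 and IGF2BP3 values was not tested.

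Across the 20 libraries, IGF2BP1 and IGF2BP3 moved closely together, at r = 0.92 of log2 CPM. LIN28B and HMGA2 went with each other at r = 0.71, IGF2BP2 with HMGA1 at r = 0.85, and IGF2BP1 with HMGA1 at r = 0.02. The points share age, and the values are descriptions over 20 libraries. The mean summed level of 12 cycling-cell markers was lower at each later age in both genotypes, after day 65 sums of 690 and 882 CPM in CF and 755 and 890 CPM in WT. It went with LIN28B at r = 0.83, IGF2BP3 at 0.80, IGF2BP1 at 0.77 and HMGA2 at 0.69, but with IGF2BP2 at 0.24 and HMGA1 at -0.15. The 2 libraries highest in LIN28B, WT day 65 replicate 2 and WT day 80 replicate 2, held genes of other tissues. Their cycling-cell sums were 890 and 880 CPM, against 755 and 568 CPM in their partners. LIN28B went with the thymus markers at r = 0.64. The part of cell division in the decline of the members was not tested.

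The genes with the most similar pattern over the 20 libraries differed from member to member. Nearest to IGF2BP1 were FBLIM1, a filamin-binding adhesion protein, at r = 0.94, then ACTL8, DVL2, GPR137C and IGF2BP3 at 0.92 to 0.93. Nearest to IGF2BP3 were TMPO, a lamina-associated protein, at 0.95, then DVL2, HN1L, NSL1 and IGF2BP1. LIN28B was nearest to FOXM1, a transcription factor of the G2 phase, at 0.94, followed by DCK, E2F8, KIAA1524 and CLSPN. HMGA2 was nearest to PIAS1, RBM25, PLEKHG1, RIF1 and PKHD1 at 0.91 to 0.93. HMGA1 was nearest to CLDN1, a tight junction protein, at 0.97, then ZNF273, PLEKHA5 and GPN3. The 5 genes nearest to IGF2BP2, PAPD7, YEATS2, CPNE1, STK24 and FTSJ1, all had r of 0.99 with it and r of 0.89 to 0.93 with the length slope. For the genes nearest to HMGA2, r with the slope was 0.81 to 0.86. For the 4 given for HMGA1 it was 0.68 to 0.77, and for those of LIN28B 0.54 to 0.73. It was 0.42 to 0.67 for those of IGF2BP3 and 0.22 to 0.53 for those of IGF2BP1.

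Part of the wider fetal growth network fell in both genotypes as well. This and the other gene lists were chosen with earlier results of these data known. Their tests of birth against day 65 are therefore no independent check on the decline of the 6 genes. Of 19 tested network genes, many of them imprinted, 6 were lower at birth than at day 65 in CF, 5 in WT and 5 in both. Calls were made at an adjusted p under 0.05 in edgeR's quasi-likelihood test. Over all genes, 3.71% were lower in CF, 4.53% in WT and 2.34% in both, and 1.78%, 3.7% and 1.16% were higher. None of the 19 was called higher by edgeR or DESeq2, and 0 in CF and 1 in WT were higher at an unadjusted p under 0.05. Without the 4 libraries with genes of other tissues, 4 were lower in CF and 5 in WT, and with the samples of a shared identifier summed, 1 in CF and 4 in WT. With the length slope as covariate, 10 were lower in CF and 9 in WT. Leaving out CF birth replicate 1 or 2 left 2 or 3 genes in CF, and leaving out WT day 65 replicate 1 or 2 left 3 or 2 genes in WT. The median log2 change of the network was -1.74 in CF and -1.17 in WT, beside -0.01 and -0.02 over all genes. The 5 genes lower in both were MEST, PLAGL1, SGCE, GPC3 and EZH2, and SLC38A4, an amino acid transporter, was lower in CF. The SLC38A4 call rests on CF day 65 replicate 2, a library high in liver genes, which had 43.2 CPM against 6.33 CPM in its partner. Without that library the log2 change was -1.37 in place of -3.33 and did not pass (adjusted p = 0.251 in edgeR).

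MEST, a paternally expressed hydrolase of embryonic mesoderm, changed most among them. At birth it stood at 38.2 and 34.5 CPM in CF, against 366 and 401 CPM on day 65, and at 52.4 and 82.2 CPM in WT, against 410 and 470 CPM on day 65. The log2 fold change was -3.40 ± 0.49 (SE) in CF and -2.71 ± 0.48 in WT, with adjusted p of 0.00187 and 0.00501 in edgeR. PLAGL1, a zinc-finger activator of the imprinted network, changed by -2.50 ± 0.32 in CF and -2.03 ± 0.31 in WT. SGCE, the epsilon sarcoglycan next to PEG10, changed by -2.46 ± 0.39 and -1.45 ± 0.38, GPC3, a glypican that restrains growth, by -2.11 ± 0.36 and -1.69 ± 0.36, and EZH2, the histone methyltransferase of Polycomb, by -1.62 ± 0.29 and -1.47 ± 0.29. Unlike IGF2BP1, MEST was higher in CF on day 80 than on day 65, at 810 and 688 CPM, and its decline in CF came later. The first of these is a library with genes of other tissues. In WT it stood at 550 and 173 CPM on day 80 and was down to 76.4 and 47.8 CPM on day 100. PLAGL1 passed in both genotypes under all 28 alternative settings, MEST in WT under all 28 and in CF under 27, and SGCE in WT under 14.

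Some known targets of let-7 fell too. Of 34 tested, 4 fell in CF and 5 in WT, 4 of them in both, with medians of -0.42 and -0.75 log2. Among all genes 3.71% fell in CF, 4.53% in WT and 2.34% in both, with medians of -0.01 and -0.02. None of the 34 rose in edgeR, where 1.78% of all genes rose in CF and 3.7% in WT. In each genotype 2 of the 34 were higher at an unadjusted p under 0.05, and DESeq2 called 1 higher in CF and 2 in WT. Without the 4 libraries with genes of other tissues, 1 fell in CF and 4 in WT, and with the samples of a shared identifier summed, 1 in CF and 3 in WT. Without the 5 libraries of lowest length slope, 7 fell in CF and 3 in WT. Leaving out any 1 of the 4 CF libraries of day 65 and birth left 1 in CF. Leaving out WT day 65 replicate 1 or 2 left 1 or 3 in WT, and leaving out WT birth replicate 1 or 2 left 8 or 1. The 4 were RRM2, a subunit of ribonucleotide reductase, DNA2, a nuclease and helicase of replication, LRIG3, a membrane protein, and CCND1, the cyclin of the G1 phase. RRM2 stood at 10.9 and 10.7 CPM at birth in CF, against 55.5 and 114 CPM on day 65, and at 16.7 and 14.3 CPM in WT, against 67.6 and 70.5 CPM on day 65. RRM2 passed in both genotypes under all 28 alternative settings, and DNA2 in CF under 17. RRM2, DNA2 and CCND1 serve the cell cycle, whose markers were lower at each later age. The part of cell division in the fall of these 3 genes was not tested. MYCN, the neural MYC gene, fell in WT by 3.21 ± 0.84 log2 (adjusted p = 0.0346 in edgeR). MYC itself was at 0.65 ± 0.30 in CF and 0.95 ± 0.30 in WT and did not pass in edgeR. DESeq2 called MYC higher in WT (adjusted p = 0.0145) and did not call it in CF.

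The machinery around let-7 held 1 called gene in edgeR with all libraries and no covariate. In that fit 3.71% of all genes were called lower in CF and 4.53% in WT. Of 18 tested genes for the making, tailing and use of microRNAs, none was called in CF by edgeR, with 3 lower at an unadjusted p under 0.05 and 2 called lower by DESeq2. In edgeR, 3 were lower in CF with the length slope as covariate and 3 without the 5 libraries of lowest slope. The gene called in WT was TRIM71, the mammalian form of nematode lin-41 and a let-7 target in mouse. Its call in WT held in all 28 alternative settings. In CF it stood at 10.1 and 9.32 CPM on day 65, 1.04 and 2.30 CPM on day 80, 4.34 and 4.68 CPM on day 100, 1.01 and 3.18 CPM on day 120, and 2.64 and 0.857 CPM at birth. In WT it stood at 7.44 and 7.09 CPM on day 65, 0.437 and 1.45 CPM on day 80, 1.11 and 1.47 CPM on day 100, 0.7995 and 0.829 CPM on day 120, and 0.112 and 0.0442 CPM at birth. The log2 change from day 65 to birth was -2.48 ± 0.73 in CF (adjusted p = 0.0732) and -6.48 ± 0.92 in WT (adjusted p = 0.00163, edgeR's quasi-likelihood test). DESeq2 called the fall in both genotypes (adjusted p = 0.00544 in CF and 6.81e-12 in WT). In edgeR the fall in CF passed with the length slope as covariate (adjusted p = 0.0138). At birth TRIM71 was higher in CF in every library, by 4.43 ± 0.85 log2. This difference did not pass in edgeR (adjusted p = 0.0869) and passed in DESeq2 (adjusted p = 8.70e-05). The test of whether its change with age differs between the genotypes was not run. TRIM71 was singled out after its values were seen. LIN28A, the paralogue of LIN28B, was below the filter.

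With all libraries and no covariate, edgeR called few genes in the IGF axis, the RNA-binding list and the other HMG proteins. Of all genes it called 3.71% lower and 1.78% higher in CF, and 4.53% lower and 3.7% higher in WT. Of 23 tested genes of the IGF axis, IGFBP2 was lower in CF, and IGFBP3 was lower and IGFALS higher in WT. IGFBP2 was near the threshold, with an adjusted p of 0.0492 in edgeR and a call in 9 of 28 alternative settings. IGFBP3 was called in 24 of these settings and IGFALS in 16. IGFALS stood at 4.92 and 12.3 CPM at birth in WT, the second in a library of low length slope. With the slope covariate its log2 change was 1.04 in place of 1.72 (adjusted p = 0.125 in edgeR). Without the 5 libraries of lowest slope it was 0.93. IGF2, the growth factor whose mRNA the family was named for, stood at 115 and 53.3 CPM at birth in CF, against 198 and 379 CPM on day 65. In WT it stood at 112 and 15.6 CPM at birth, against 425 and 438 CPM on day 65. These log2 changes of -1.78 ± 0.96 and -2.75 ± 1.00 did not pass in edgeR (adjusted p = 0.381 and 0.102). DESeq2 called IGF2 lower in WT (adjusted p = 0.0177) and did not call it in CF. Of 27 RNA-binding and m6A genes, YTHDC1, MSI1 and FMR1 were lower in WT, and none was called in CF by edgeR, with 4 at an unadjusted p under 0.05 and 1 called by DESeq2. Under the 28 alternatives YTHDC1 passed in 7, MSI1 in 14 and FMR1 in 16. The WT count was 0 without the 4 libraries with genes of other tissues and 1 with the replicate block, and the CF count was 4 with the slope covariate. Of 12 other HMG proteins, HMGB3 was lower in CF. None was called in WT by edgeR, with 3 lower and 2 higher at an unadjusted p under 0.05 and 2 lower and 2 higher by DESeq2. With the slope covariate, edgeR called 6 of the HMG proteins lower in CF and 6 in WT, and without the 5 libraries of lowest slope 4 in CF and 3 in WT.

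**Figure D5:**
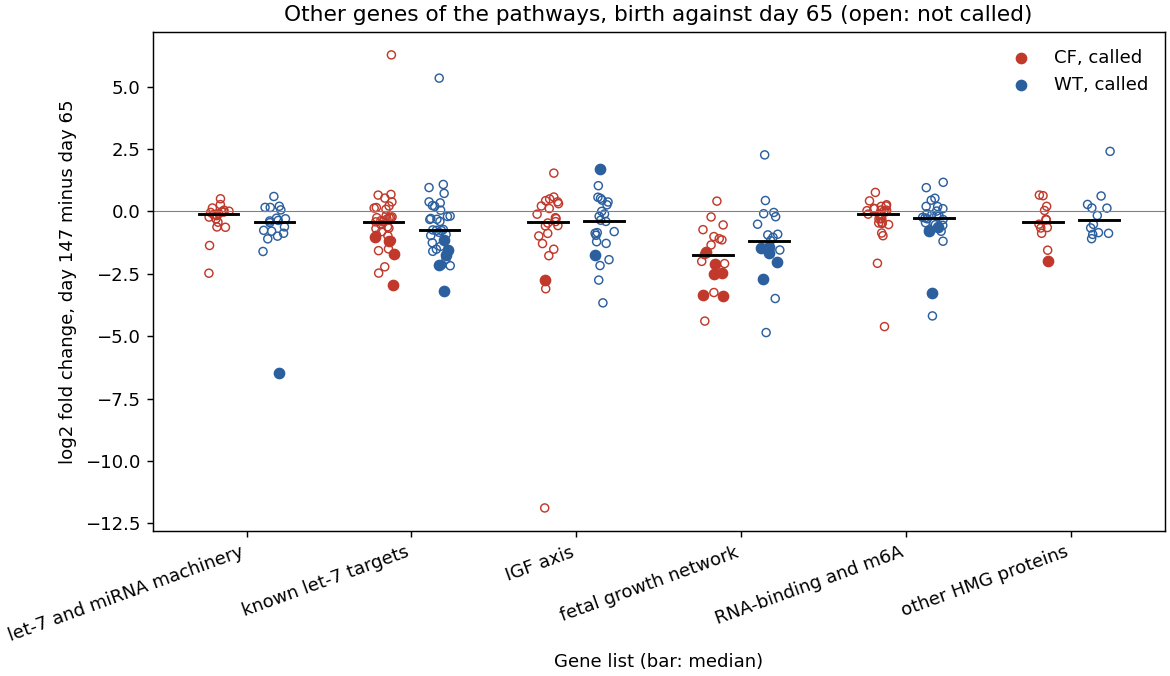
Log2 fold change of birth over day 65 for each gene of the 6 lists, with CF in red to the left of WT in blue. Filled points passed at an adjusted p under 0.05 in edgeR, open points did not, and bars are medians. The fetal growth network has the lowest medians, -1.74 in CF and -1.17 in WT.

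Between CF and WT, edgeR called list genes on day 100. On days 65, 80 and 120 it called none, with 5, 12 and 0 at an unadjusted p under 0.05 and 1, 2 and 0 called by DESeq2. Over the mean of days 65 to 120, edgeR called none of the 132 list genes, with 12 at an unadjusted p under 0.05 and 5 called by DESeq2, PLAGL1, MEST, SGCE, COL1A2 and IGFBP1. IGFBP1, a gene of liver, had 965 counts in CF day 65 replicate 2, where liver markers were high, and 19 or fewer in every other library. At birth edgeR called none, with 11 at an unadjusted p under 0.05 and 2 called by DESeq2, TRIM71 and GRB10. On day 100 edgeR called 3, all higher in CF, where 1.4% of all genes were called higher, and 20 had an unadjusted p under 0.05. DESeq2 called 12 on that day, 11 higher and 1 lower in CF. MEST stood at 407 and 351 CPM in CF and 76.4 and 47.8 CPM in WT, a log2 fold change of 2.61 ± 0.48 (SE, adjusted p = 0.0180 in edgeR). The other 2 were the collagen genes COL1A2, at 2.76 ± 0.44 log2, and COL3A1, at 2.18 ± 0.43 log2, which are let-7 targets in mouse or human and are also among the fibroblast markers. Fibroblast markers were high in CF on that day, as given above, and their part in these calls was not tested. With the 2 WT libraries of day 100 summed as 1 sample, edgeR called 0 genes on day 100.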

How the data were processed

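RNA of tracheal tissue from 20 sheep samples was sequenced. The submitters' processing notes name STAR 2.6 and featureCounts 1.6.3 from Subread. The authors deposited raw counts by gene in a CF and a WT table. Build, annotation and strand setting were not given in the sources used here, so overlapping and antisense genes cannot be separated. Of 8432 identifiers in place of symbols, 501 took a symbol from a RefSeq table (ARS-UI_Ramb_v3.0), whose coordinates were not used.

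Samples were grouped by title. In 4 groups the replicates' identifiers differ in a suffix alone. A chi-square per gene of 37.6 to 1662 between replicates showed no library deposited in duplicate.

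Tests used edgeR 4.0.16 in R 4.3.3 on the 20097 genes kept by filterByExpr, with TMM scaling, 1 coefficient per group and a robust quasi-likelihood fit. P-values were adjusted by Benjamini-Hochberg across those 20097 genes and called at 0.05. SE are the log2 fold change over the root of F. DESeq2 1.42.0 was an alternative. The code was tested on simulated counts. Correlations used log2 CPM with a prior count of 2. Floors of 3 counts and intervals cover counting error only.

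The members and the gene lists were chosen with earlier results of these data known. Named genes are the members, the 5 genes nearest to each by Pearson r, up to 4 list genes per direction called in both genotypes, and list genes called between CF and WT. For HMGA1, 4 of the 5 nearest genes are given, and the other is not reported here. Others beside small counts, TRIM71, IGF2 and MYC were named after their values were seen.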

Additional observations from a re-analysis of the deposited data

Results flagged for a closer look

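Opposite directions at different ages stood out for 3 of the genes. IGF2BP1 was higher in every CF library than in every WT library on day 100 and lower in every CF library on day 120. The log2 ratios of CF over WT at these ages differ by 3.42, and the F test over days 65 to 120 gave an adjusted p of 0.492 in edgeR. IGF2BP1 was higher again in both CF libraries at birth, where the log2 ratio differs from that of day 120 by at least 6.50 with WT at the floor of 3 counts and by at least 5.50 with a floor of 6. Neither pair of ages was tested on its own, and that of birth was not tested at all, since the genes were chosen on their levels at birth. IGF2BP2 was higher in every CF library on day 100 and lower in every CF library on day 65, with log2 ratios that differ by 1.65 (adjusted p of the F test 0.982 in edgeR). HMGA2 did the same, with a difference of 1.204 (adjusted p of the F test 0.978). With the length slope as a covariate the CF over WT differences of IGF2BP2 on days 65 and 100 change sign, as do those of HMGA2. With 2 libraries a group, CF and WT libraries were apart by genotype for 47.5% of all genes on day 65, 70.6% on day 100, 16.5% on day 120 and 31.3% at birth.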

How the results depend on the processing

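With 2 libraries a group and 1 identifier on some pairs, the number of called genes moved widely, and the cause was not tested. The summed and reduced sets hold fewer samples by construction. The settings on the length slope were chosen after seeing the data. None of the 6 genes passed before birth in the main test, and of their 1008 tests under the alternatives 3 passed. These were IGF2BP3 on day 80 without the 5 libraries of lowest slope (-0.77 log2, adjusted p = 0.0389 in edgeR), LIN28B on day 100 (adjusted p = 0.0474) and IGF2BP1 in the F test (adjusted p = 0.0302), both with DESeq2. Depth limits HMGA2 and LIN28B, with 18 counts or fewer per library at birth.

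Over the mean of days 65 to 120, 90 genes were called between CF and WT. The number was 660 with DESeq2, 51 with a replicate block, 0 with the samples of a shared identifier summed, 2 without the 4 libraries with genes of other tissues, 523 with length slope added as covariate and 432 without the 5 libraries of lowest slope. On day 65, 2 were called, against 150 with DESeq2, 1 with the replicate block, 0 with summed samples, 0 without the 4 libraries and 7 with the slope covariate. On day 80, 0 were called, against 693 with DESeq2, 20 with the slope covariate and 1803 without the 5 libraries. On day 100, 294 were called, against 1210 with DESeq2, 0 with summed samples, 716 with the slope covariate and 557 without the 5 libraries. On day 120, 0 were called, against 17 with DESeq2 and 1 without the 5 libraries. In the F test among days, 0 were called, against 568 with DESeq2, 80 with the slope covariate and 393 without the 5 libraries. At birth, 19 were called, against 8 with DESeq2 size factors, 6 with no filter, 420 with DESeq2, 3 with the replicate block, 1 with summed samples, 8 without the 4 libraries, 294 with the slope covariate and 48 without the 5 libraries. Between birth and day 65, 1104 were called in CF, against 2429 with DESeq2, 139 with summed samples, 533 without the 4 libraries, 3684 with the slope covariate and 2595 without the 5 libraries. In WT 1654 were called, against 4110 with DESeq2, 1013 with summed samples, 987 without the 4 libraries and 3298 with the slope covariate. The WT log2 ratio of LIN28B at birth to day 65 was -5.35 without the 4 libraries, against -7.94 with them.

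Differences of CF and WT for the 6 genes changed sign in several settings without passing. Without the 4 libraries with genes of other tissues, the mean over days 65 to 120 was 0.0080 log2 for IGF2BP3 and 0.27 for HMGA2, IGF2BP1 on day 65 was at -0.37, and on day 80 IGF2BP2 was at 3.43, IGF2BP3 at 0.0024, LIN28B at 2.36 and HMGA2 at 0.51. With the slope covariate, day 65 gave 0.89 for IGF2BP2, 0.12 for IGF2BP3 and 0.19 for HMGA2, day 80 gave 1.24 for IGF2BP2, and day 100 gave -0.998 for IGF2BP2, -0.20 for IGF2BP3, -0.72 for HMGA2 and -0.79 for HMGA1. Without the 5 libraries, the mean over days was -0.24 for IGF2BP2, IGF2BP1 on day 80 was at 0.45, day 100 gave -0.11 for IGF2BP3 and -0.26 for HMGA1, and day 120 gave -0.050 for IGF2BP3, 0.41 for LIN28B and -0.035 for HMGA1. With summed samples, day 100 gave -0.045 for IGF2BP3 and -0.065 for HMGA1.

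Leaving out 1 library at a time gave 6 to 297 called genes over the mean of days 65 to 120, 0 to 46 on day 65, 0 to 362 on day 80, 0 to 488 on day 100, 0 on day 120, 0 to 164 in the F test, 1 to 61 at birth, 330 to 1477 between birth and day 65 in CF and 413 to 3426 in WT. For the members, the mean over days ran from -0.25 to 0.17 log2 for IGF2BP1, -0.24 to 1.18 for IGF2BP2, -0.18 to 0.050 for IGF2BP3, -0.023 to 1.85 for LIN28B (a fit with WT at 0 on day 100, which depends on the prior count) and -0.80 to 0.16 for HMGA2. Day 65 gave -0.33 to 0.96 for IGF2BP1, -0.20 to 0.13 for IGF2BP3 and -3.00 to 0.57 for LIN28B. Day 80 gave -0.60 to 0.44 for IGF2BP1, -1.32 to 3.61 for IGF2BP2, -0.78 to 0.034 for IGF2BP3 and -4.85 to 2.63 for LIN28B. Day 100 gave 0.89 to 2.54 for IGF2BP1, -0.11 to 0.20 for IGF2BP3 and -0.26 to 0.47 for HMGA1. Day 120 gave -1.53 to 2.41 for IGF2BP2, -0.16 to 0.42 for IGF2BP3, -0.90 to 0.39 for LIN28B, -0.51 to 2.36 for HMGA2 and -0.36 to 0.84 for HMGA1. The log2 ratio of birth to day 65 ran from -6.16 to -4.41 for LIN28B in CF, and in WT from -10.25 to -8.62 for IGF2BP1, -5.19 to -0.95 for IGF2BP2, -8.81 to -5.35 for LIN28B, -5.81 to -3.86 for HMGA2 and -1.35 to 0.19 for HMGA1.

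Replicate numbers in the titles were not taken as pairs, since same-numbered deviations correlated between -0.588 and 0.733 over 45 pairs of groups, above 0.1 in 12. The replicate block gave 51 called genes over the mean of days, beside 90 without it, and called no member.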
